A study of Mus musculus with 12 samples.

Results

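The D cyclins Ccnd1, Ccnd2 and Ccnd3, their kinases Cdk4 and Cdk6, the inhibitors Cdkn1b, Cdkn1c, Cdkn2a and Cdkn2c, and the substrate Rb1 were followed through heart RNA-seq libraries of 4 groups of mice. These 10 genes, of 17536 in the deposited table, were picked by name as the cyclin D genes with their kinases and inhibitors, leaving out Cdkn1a. They were picked because Ccnd1 was known to be higher in the busulfan groups of these same libraries. Differences from control are therefore given below as descriptions, with no p, and nothing is read from the counts of calls against control. Tests are read only between the groups that had busulfan. Of the 10 genes, 9 passed the filter on low counts that left 13489 genes for testing, and Cdkn2a did not.

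All libraries came from hearts of 10-week-old ICR mice, an outbred stock, with 3 libraries per group. The AOS-FMT group had busulfan with FMT of the AOS kind, labelled with AOS at 10 mg/kg. The control-FMT group had busulfan with FMT of the control kind. The busulfan group had the drug alone at 20 mg/kg, and the control group had none of these. Busulfan is an alkylating chemotherapy drug, the labels give no dose of it for either FMT group, and AOS and FMT are written here as in the labels. The labels do not say that replicates were separate animals, so p-values measure only the spread between these samples, which may be technical.

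In the G1 phase of the cell cycle a D cyclin binds CDK4 or CDK6, and the complex phosphorylates the retinoblastoma protein, the product of Rb1. Phosphorylated Rb releases E2F factors, which turn on genes for DNA replication. Inhibitors of the INK4 family (p16 from Cdkn2a, p18 from Cdkn2c) bind the kinases, and those of the CIP/KIP family (p27 from Cdkn1b, p57 from Cdkn1c) bind cyclin and kinase complexes. Cardiomyocytes of the adult mouse heart rarely divide, while its endothelial, mural, fibroblast and blood cells can enter the cycle.

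Each D cyclin docks on Rb through a short motif near its start, the amino acids leucine, any, cysteine, any, glutamate. The first 60 coding bases of the 3 transcripts are shown because this motif ties the D cyclins to Rb1, with its codons in capitals (GENCODE M21, GRCm38).
Ccnd1: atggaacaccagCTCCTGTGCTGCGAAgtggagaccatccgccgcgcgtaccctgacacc
Ccnd2: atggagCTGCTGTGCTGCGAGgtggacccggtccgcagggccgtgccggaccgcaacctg
Ccnd3: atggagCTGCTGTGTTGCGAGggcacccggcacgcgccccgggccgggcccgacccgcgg
The motif takes codons 5 to 9 of Ccnd1 and codons 3 to 7 of the other D cyclins. The coding sequences hold 295, 289 and 292 codons for Ccnd1, Ccnd2 and Ccnd3. Over all columns of the alignment, those with gaps included, Ccnd1 and Ccnd2 were 66.7% identical, Ccnd1 and Ccnd3 63.2%, and Ccnd2 and Ccnd3 66.2%. The genes lie apart in the genome (GRCm38.p6), with Ccnd1 (NCBI gene 12443) on the minus strand of chr7:144929931-144939831, Ccnd2 (12444) on the minus strand of chr6:127125162-127152188 and Ccnd3 (12445) on the plus strand of chr17:47505051-47599689.

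The window around the start of Cdk4 is shown because it is the only one of the 9 promoter windows found for the listed genes with more than 1 copy of CACGTG, the E box read by MYC family factors, in capitals (RefSeq, GRCm38.p6, chr10:127063285-127063584, plus strand, from 250 bases before the start to 50 after it).
Cdk4: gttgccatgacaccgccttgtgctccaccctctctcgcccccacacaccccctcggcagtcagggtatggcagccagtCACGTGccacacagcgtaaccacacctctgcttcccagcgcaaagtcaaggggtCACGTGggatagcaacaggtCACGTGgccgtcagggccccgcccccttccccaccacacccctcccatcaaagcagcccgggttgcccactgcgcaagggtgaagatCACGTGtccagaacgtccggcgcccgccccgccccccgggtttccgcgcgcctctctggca
It holds 4 copies, and the motif reads the same on both strands. Of 32851 promoter windows of this length, 7.15% held at least 1 copy and 0.0244% held 4 or more. Windows were found for 6 of the 10 genes, namely Ccnd3, Cdk4, Cdk6, Cdkn1b, Cdkn2a and Cdkn2c. A match describes the letters only, and no binding was measured here.

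Levels between genes were compared as TPM, which is per transcript length. Ccnd3 was the highest of the 10 genes at 93.8 ± 10.1 TPM (SD over 12 libraries), ahead of every other D cyclin, and Cdk4 followed at 71.7 ± 7.75 TPM. The ranges of Ccnd3 and Cdk4 overlapped over all 12 libraries but not within any of the 4 groups. Below them, Cdkn1c averaged 26.7 ± 3.39 TPM, Ccnd1 22.6 ± 6.83, Ccnd2 18.8 ± 5.53 and Cdkn1b 17.6 ± 2.44, and the range of each overlapped that of its neighbour. Cdkn2c at 9.68 ± 2.01 TPM and Rb1 at 7.88 ± 1.41 TPM also overlapped each other. Cdk6 was far lower than Cdk4, at 1.502 ± 0.317 TPM, and Cdkn2a was lowest at 0.281 ± 0.213 TPM.

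The order of levels was nearly the same in each group, apart from the place of Ccnd1. By mean TPM, Ccnd1 stood in place 4 of 10 in AOS-FMT, control-FMT and busulfan hearts, just below Cdkn1c, and in place 6 in control hearts, below Ccnd2 and Cdkn1b. Its level was 25.5 ± 3.29 TPM in AOS-FMT, 28.04 ± 2.68 in control-FMT, 24.5 ± 3.68 in busulfan and 12.5 ± 3.04 TPM in control hearts (SD, n = 3 each). In the control hearts the Ccnd1 range overlapped that of Cdkn1b, and in AOS-FMT, control-FMT and busulfan hearts it lay above it without overlap.

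**Figure D1:**
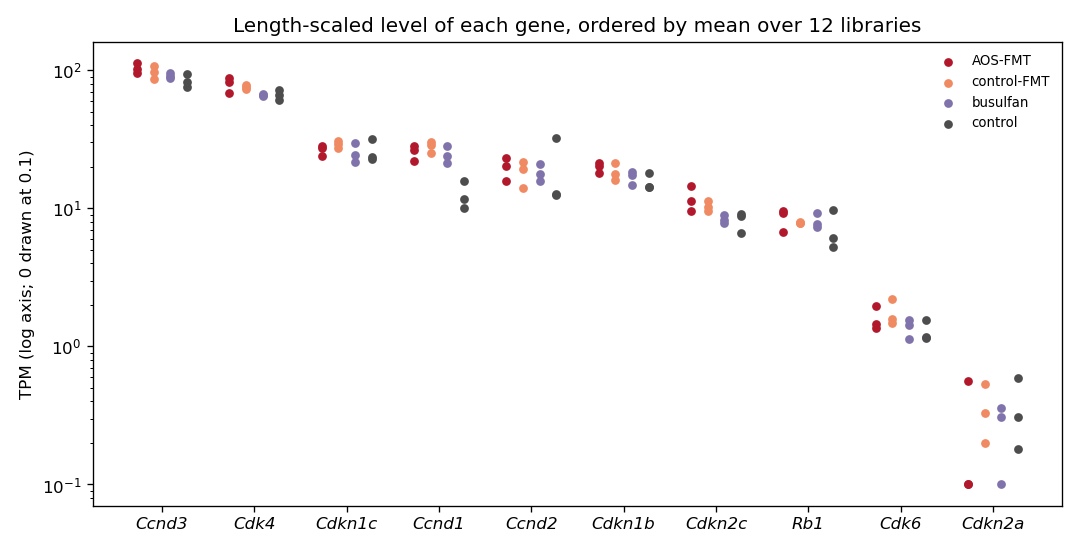
TPM (log axis) of the 10 genes in each of 12 libraries, ordered by mean, with one point per library coloured by group. Ccnd3 (93.8 TPM) and Cdk4 (71.7 TPM) stand above the rest, Cdk6 (1.502 TPM) and Cdkn2a (0.281 TPM) stand below, and for Ccnd1 the 3 control points lie apart at the low end.

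Ccnd1, the D cyclin best known as a target of growth factor signalling, was the one D cyclin whose level in every busulfan-exposed library exceeded that in every control library. It was at 76.1, 59.5 and 70.6 CPM in the AOS-FMT libraries, 83.0, 70.3 and 77.4 in the control-FMT libraries, 71.8, 83.5 and 59.8 in the busulfan libraries, and 40.8, 41.3 and 32.8 CPM in the control libraries. The lowest of the 9 exposed libraries, AOS-FMT replicate 2, was still above the highest control, replicate 2. These values rest on 707 to 1059 estimated counts in exposed libraries and 413 to 543 in control libraries.

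Against control, the Ccnd1 level was 1.79-fold in AOS-FMT hearts (95% interval 1.45 to 2.22), 2.01-fold in control-FMT hearts (1.62 to 2.49) and 1.87-fold in busulfan hearts (1.51 to 2.32). The log2 differences were 0.84, 1.01 and 0.91, each with a standard error of 0.14. These 3 comparisons share the control libraries and were used to pick the genes, so no p is given for them. In bulk tissue, more cells of a type with Ccnd1 RNA and more Ccnd1 RNA per cell cannot be told apart. Part of Ccnd1, 1771 bases, overlaps the gene LTO1 on the opposite strand, and whether the counting used strand is not given in the sources used here. LTO1 averaged 19.6 CPM in AOS-FMT, 18.1 in control-FMT and 18.1 in busulfan hearts, and 17.3 CPM in control hearts, log2 differences from control of 0.18, 0.07 and 0.06.

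The other D cyclins did not show this split. Ccnd2, known in the mouse as a D cyclin of heart muscle growth, was at 68.7, 100.3 and 87.0 CPM in AOS-FMT, 85.5, 64.1 and 95.5 in control-FMT, 77.7, 84.5 and 95.2 in busulfan, and 72.8, 135.5 and 67.7 CPM in control libraries. Control replicate 2 was the highest of all 12, the other control libraries sat near the low end, and every group overlapped every other. Ccnd2 had the largest spread within groups of the 9 genes that passed the filter, an SD of 0.349 on the log2 CPM scale, against 0.187 for Ccnd1 and 0.109 for Ccnd3. Its log2 differences from control were -0.11 ± 0.25 in AOS-FMT, -0.17 ± 0.25 in control-FMT and -0.10 ± 0.25 in busulfan hearts (± standard error).

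Ccnd3, the most abundant D cyclin here, was also the steadiest. It was at 117.1, 129.9 and 140.1 CPM in AOS-FMT, 133.6, 123.8 and 107.9 in control-FMT, 125.9, 115.5 and 119.0 in busulfan, and 122.5, 114.3 and 116.8 CPM in control libraries. All 4 groups overlapped. Its log2 differences from control were 0.13 ± 0.11, 0.05 ± 0.11 and 0.03 ± 0.11 in AOS-FMT, control-FMT and busulfan hearts, so the upper 95% bound of each stayed below 0.36. It overlaps 361 bases of Bysl.

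**Figure D2:**
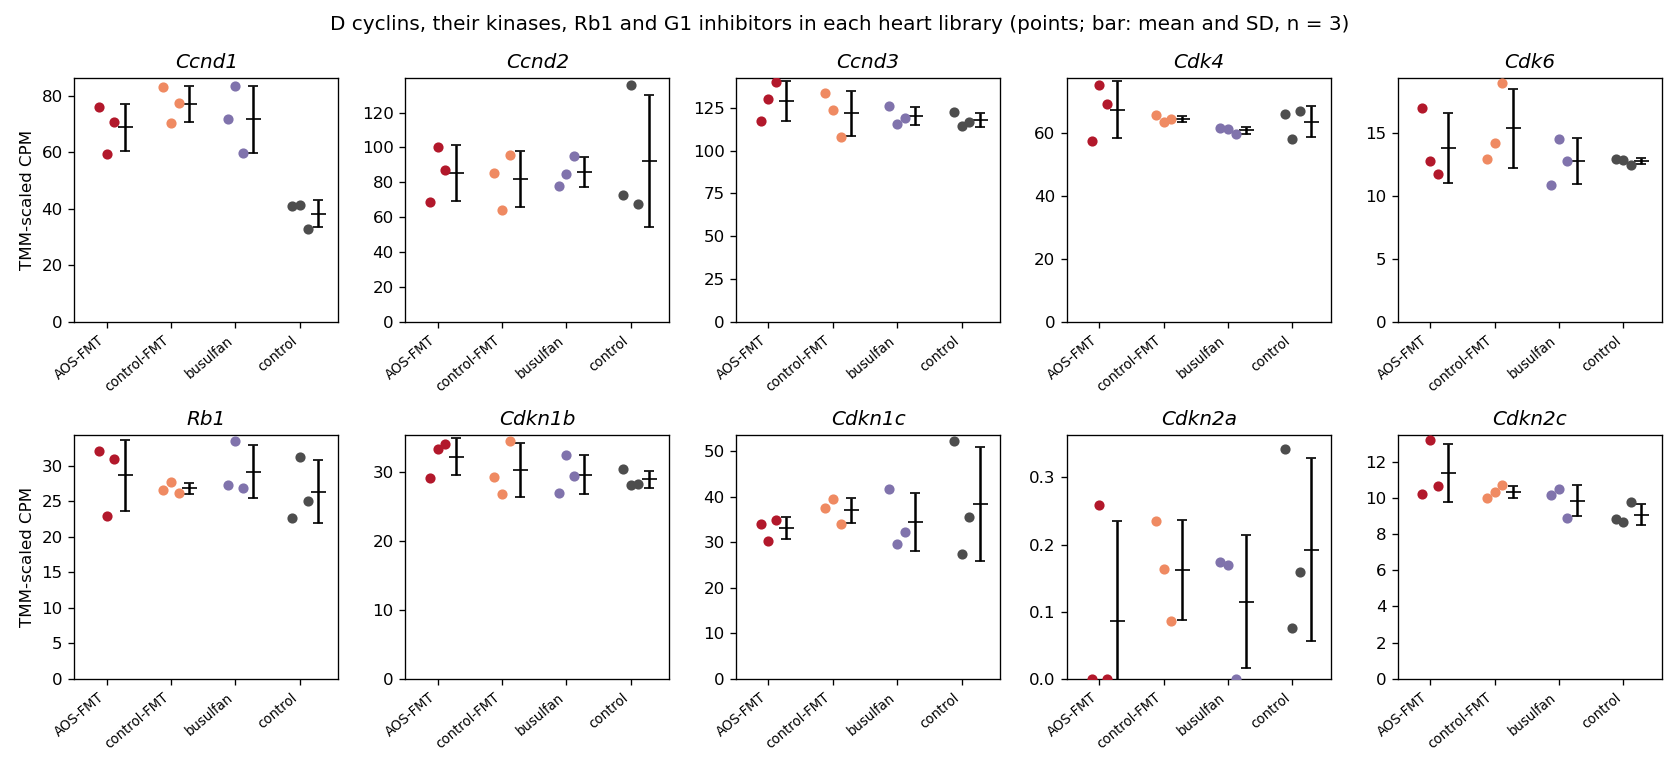
CPM of each of the 10 genes in every library, with AOS-FMT, control-FMT, busulfan and control from left to right; points are libraries and bars are mean ± SD (n = 3). For Ccnd1 the 9 exposed libraries (59.5 to 83.5 CPM) sit above the 3 controls (32.8 to 41.3 CPM), while in Ccnd2 a single control library reaches 135.5 CPM.

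The make-up of the D cyclin pool followed these levels. Ccnd1 made up 20.3%, 14.9% and 16.6% of summed D cyclin TPM in AOS-FMT libraries, 19.4%, 18.5% and 20.9% in control-FMT, 18.2%, 21.4% and 15.5% in busulfan, and 11.6%, 11.1% and 9.50% in control libraries. Ccnd3 held the larger part in every library, from 63.3% to 78.6%, and Ccnd2 from 10.3% to 22.7%, with the 22.7% in control replicate 2. Between the exposed groups the Ccnd1 share overlapped in each pair. Its means were 17.3% ± 2.74 in AOS-FMT, 19.6% ± 1.23 in control-FMT and 18.4% ± 2.94 in busulfan hearts (SD, n = 3 each). The exact permutation test, two-sided, gave p = 0.6 for control-FMT against busulfan, 0.7 for AOS-FMT against busulfan and 0.3 for AOS-FMT against control-FMT. With 3 libraries against 3 the smallest p this test can give is 0.1. The control mean was 10.7% ± 1.10.

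**Figure D3:**
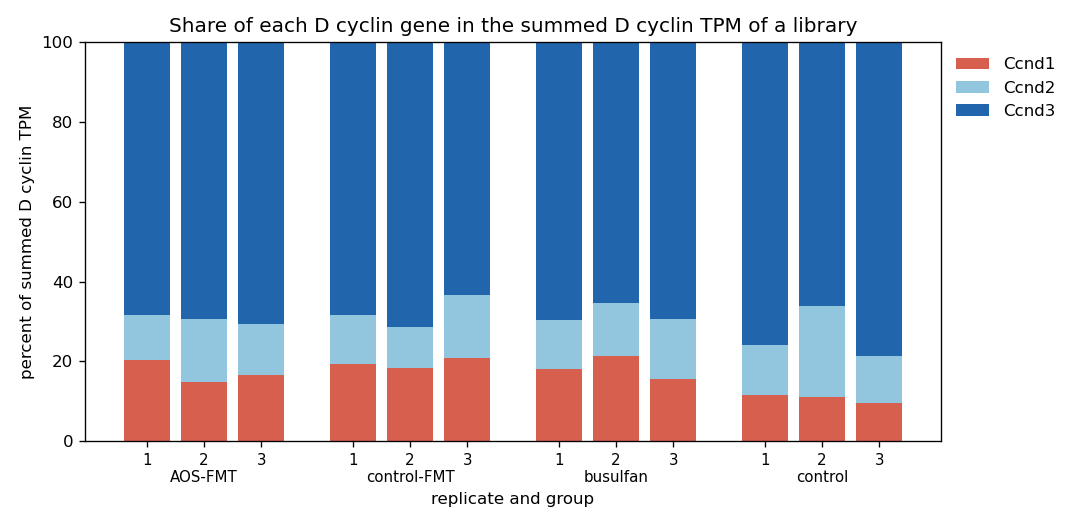
Share of each D cyclin in the summed D cyclin TPM (percent, bars start at 0) for every library, grouped as AOS-FMT, control-FMT, busulfan and control. Ccnd3 is the largest part of every bar (63.3% to 78.6%), and the Ccnd1 part is 14.9% to 21.4% in exposed libraries and 9.50% to 11.6% in control libraries.

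Of the kinases, Cdk4 (NCBI gene 12567) varied little. It was at 57.4, 75.3 and 69.2 CPM in AOS-FMT, 65.5, 63.6 and 64.3 in control-FMT, 61.5, 61.4 and 59.6 in busulfan, and 66.1, 57.9 and 66.8 CPM in control libraries. The 3 control-FMT libraries lay above the 3 busulfan libraries without overlap, by a narrow margin of 63.6 against 61.5 CPM. That difference was 0.08 ± 0.11 on the log2 scale and did not pass the edgeR test (adjusted p = 0.999). Cdk4 shares 641 bases with Tspan31.

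Cdk6 (12571), the second kinase of the D cyclins, was at 16.9, 12.7 and 11.7 CPM in AOS-FMT, 12.9, 14.2 and 18.9 in control-FMT, 10.9, 14.5 and 12.8 in busulfan, and 12.9, 12.8 and 12.5 CPM in control libraries. Control-FMT libraries did not overlap the controls, but the lowest control-FMT library and the highest control library both come to 12.93 CPM when rounded. The log2 differences from control were 0.11 ± 0.18 in AOS-FMT, 0.27 ± 0.18 in control-FMT and 0.00 ± 0.18 in busulfan hearts.

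Rb1 (19645), which encodes the protein the kinases act on, was at 32.1, 22.9 and 31.0 CPM in AOS-FMT, 26.7, 27.7 and 26.1 in control-FMT, 27.3, 33.4 and 26.8 in busulfan, and 22.7, 31.3 and 25.1 CPM in control libraries. Every group overlapped the control group. Rb1 lies in a region shared with Lpar6 and Rcbtb2, over 5400 and 24171 bases of their gene bodies.

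The CIP/KIP inhibitors were at similar levels. Cdkn1b (12576), which encodes p27, was at 29.1, 33.4 and 34.1 CPM in AOS-FMT, 29.3, 26.8 and 34.5 in control-FMT, 26.9, 32.5 and 29.4 in busulfan, and 30.4, 28.2 and 28.2 CPM in control libraries. Cdkn1c (12577), an imprinted gene that encodes p57, was at 34.0, 30.3 and 34.9 CPM in AOS-FMT, 37.4, 39.4 and 34.1 in control-FMT, 41.7, 29.5 and 32.1 in busulfan, and 52.1, 27.5 and 35.5 CPM in control libraries. For Cdkn1c the control group held both the highest and the lowest library, so its groups overlapped throughout. Log2 differences from control were 0.15 ± 0.12, 0.06 ± 0.12 and 0.03 ± 0.12 for Cdkn1b and -0.21 ± 0.19, -0.05 ± 0.19 and -0.15 ± 0.20 for Cdkn1c in AOS-FMT, control-FMT and busulfan hearts.

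Among the INK4 inhibitors, Cdkn2c (12580), which encodes p18, was at 10.2, 13.2 and 10.7 CPM in AOS-FMT, 10.0, 10.3 and 10.7 in control-FMT, 10.2, 10.5 and 8.88 in busulfan, and 8.82, 8.66 and 9.76 CPM in control libraries. The AOS-FMT and the control-FMT libraries all lay above the controls, and the busulfan libraries overlapped them. The log2 difference from control was 0.33 ± 0.14 in AOS-FMT, 0.19 ± 0.14 in control-FMT and 0.12 ± 0.14 in busulfan hearts. Cdkn2a (12578), whose locus gives p16 and, from another first exon, p19Arf, was barely detected. It had 0, 4 and 0 counts in AOS-FMT, 3, 2 and 1 in control-FMT, 2, 2 and 0 in busulfan, and 4, 1 and 2 in control libraries. With 21 counts over 12 libraries, most values are at or under a floor of 3 counts, which is 0.194 to 0.261 CPM, and no fold is given. Cdkn1a, the CIP/KIP inhibitor p21 that was left out of the set, averaged 83.6 ± 7.22 CPM in AOS-FMT, 66.1 ± 2.95 in control-FMT, 72.6 ± 7.58 in busulfan and 38.5 ± 6.23 CPM in control hearts (SD, n = 3 each).

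Set against control by the edgeR quasi-likelihood test at an adjusted p under 0.05, 1 of the 9 genes (Ccnd1) was called in busulfan hearts, where 0.0593% of all genes were called. In control-FMT hearts 0 of 9 were called and 0% of all genes, and in AOS-FMT hearts 0 of 9 and 0.0815%. DESeq2 called Ccnd1 in all 3 comparisons, with 0.904%, 0.66% and 0.882% of all genes called in AOS-FMT, control-FMT and busulfan hearts, and limma-voom in AOS-FMT hearts only, with 0.111%, 0% and 0.0371%. These comparisons were used to pick the genes, so nothing is read from these counts. Groups did not overlap, with the exposed group always higher, for 2 of 9 genes in AOS-FMT, 3 in control-FMT and 1 in busulfan hearts. Of all genes, 6.63%, 7.16% and 7.74% were higher in this way. Each of these counts holds Ccnd1, whose higher level led to the pick, so nothing is read from them either. The others were Cdkn2c in AOS-FMT and control-FMT hearts and Cdk6 in control-FMT hearts.

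The tests between the busulfan-exposed groups ask whether FMT of either kind went with another level of these genes than busulfan alone. In the main edgeR fit none of the 9 genes was called in any of these comparisons, and 0 had an unadjusted p under 0.05. DESeq2 and limma-voom also called 0. Of all genes, DESeq2 called 0.0148% in control-FMT against busulfan, 0.971% in AOS-FMT against busulfan and 0.237% in AOS-FMT against control-FMT, and limma-voom 0%, 0.0297% and 0.0297%. An unadjusted p under 0.05 was found for 2.65% of all genes in control-FMT against busulfan, 13.6% in AOS-FMT against busulfan and 6.23% in AOS-FMT against control-FMT. Among all genes, edgeR called 0% for control-FMT against busulfan (0 genes, with 358 at an unadjusted p under 0.05), 0.0445% for AOS-FMT against busulfan and 0.0297% for AOS-FMT against control-FMT. Groups did not overlap for 1 of 9 genes (Cdk4) in control-FMT against busulfan, where 12% of all genes did not overlap. For AOS-FMT against busulfan and AOS-FMT against control-FMT it was 0 of 9, with 21.2% and 13.8% among all genes.

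For Ccnd1 the intervals bound the differences that remain possible. AOS-FMT over control-FMT was -0.16 ± 0.14 on the log2 scale (95% interval -0.47 to 0.14, edgeR adjusted p = 0.834). AOS-FMT over busulfan was -0.06 ± 0.14 (-0.36 to 0.24, adjusted p = 0.863), and control-FMT over busulfan was 0.10 ± 0.14 (-0.20 to 0.40, adjusted p = 0.999). Each interval holds 0 and leaves out a difference as large as the 0.84 to 1.01 seen against control. A missed threshold does not show that the groups are alike.

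None of the other 8 genes passed the test between exposed groups. Of the 9 genes, Cdk6 had the largest log2 difference in control-FMT over busulfan, 0.27 ± 0.18 (-0.11 to 0.65), and Cdkn2c in AOS-FMT over busulfan, 0.21 ± 0.14 (-0.09 to 0.50). The interval was widest for Ccnd2, from -0.55 to 0.54 in AOS-FMT over busulfan, so a change of about this size could have gone unseen. In AOS-FMT over busulfan the value of Ccnd2 was -0.01 ± 0.25 and became -0.46 ± 0.25 with the atrial score in the fit, and that of Cdk6 was 0.11 ± 0.18 and became 0.36 ± 0.24 with the liver score. The median of the 9 log2 differences was 0.06 for AOS-FMT over control-FMT, 0.10 for AOS-FMT over busulfan and 0.07 for control-FMT over busulfan, where the median of all genes was 0.00 each time. EdgeR adjusted p-values ran from 0.834 to 0.970, from 0.487 to 0.990 and were 0.999 throughout, in that order.

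**Figure D4:**
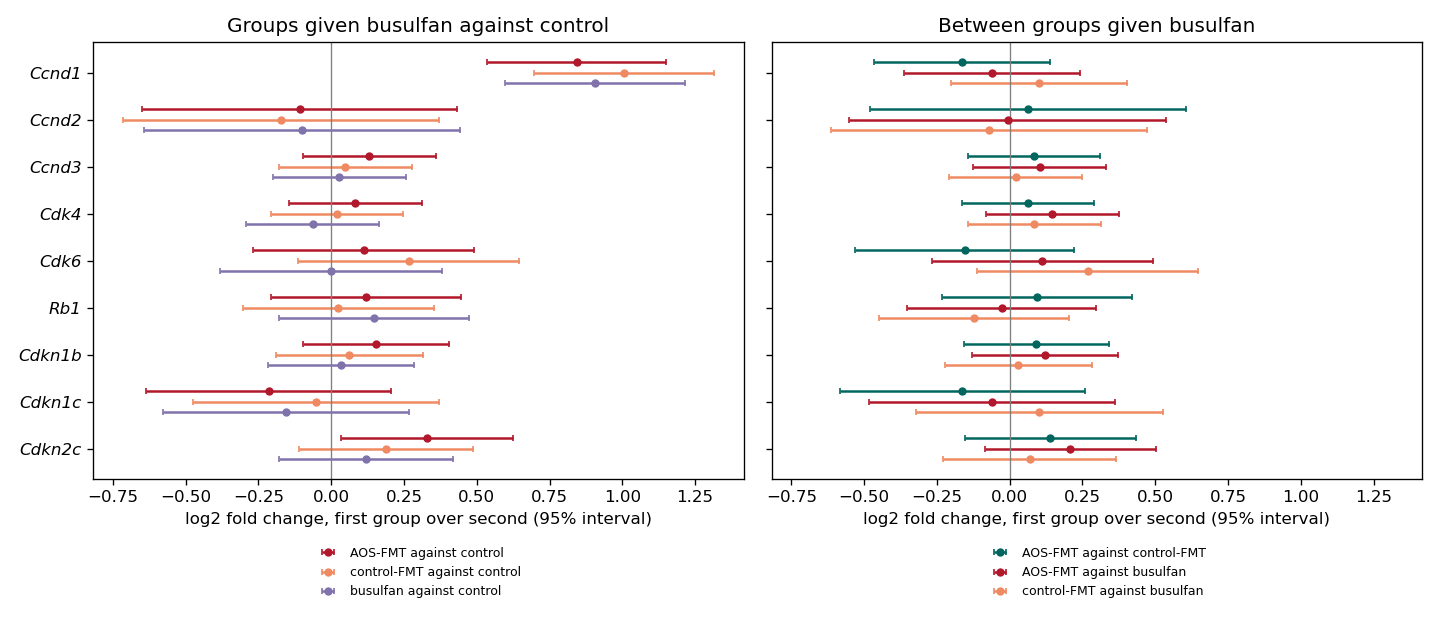
Log2 fold changes with 95% intervals of the 9 tested genes in the 6 comparisons, each named with the group on top of the fold first. Ccnd1 lies to the right of 0 against control (0.84, 1.01 and 0.91) and every interval between busulfan-exposed groups crosses 0.

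The balance of D cyclins to CIP/KIP inhibitors, as the ratio of summed D cyclin TPM to summed Cdkn1b and Cdkn1c TPM, was 3.09, 3.31 and 3.22 in AOS-FMT, 3.31, 2.92 and 2.83 in control-FMT, 2.93, 3.34 and 3.28 in busulfan, and 2.17, 3.50 and 2.78 in control libraries. Controls held both the lowest and the highest ratio. Its means were 3.20 ± 0.112 in AOS-FMT, 3.02 ± 0.254 in control-FMT, 3.18 ± 0.220 in busulfan and 2.82 ± 0.668 in control hearts (SD, n = 3 each). The two-sided exact permutation p was 0.4 for control-FMT against busulfan, 0.9 for AOS-FMT against busulfan and 0.4 for AOS-FMT against control-FMT.

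Within groups some pairs of the genes ran together or opposite to each other from library to library. After the group means were taken out of log2 CPM, over 12 libraries, Ccnd3 and Cdk6 ran opposite to each other (Pearson r = -0.93). Cdk4 ran with Cdkn2c (r = 0.71) and opposite to Rb1 (r = -0.71), Ccnd2 ran opposite to Cdkn1c (r = -0.68), and Ccnd1 ran with Rb1 (r = 0.62). These are descriptions of libraries that share depth and scaling. They are the 5 strongest of all pairs of the 9 tested genes, a choice that by itself favours large r, and no test was run on them.

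The rest of the pathway was read from lists of known genes, 82 of which were tested. Between exposed groups edgeR called 0 of them. Of all genes it called 0.0445% in AOS-FMT against busulfan, 0.0297% in AOS-FMT against control-FMT and 0% in control-FMT against busulfan. In the same order, 6, 5 and 1 of the 82 had an unadjusted p under 0.05, against 13.6%, 6.23% and 2.65% of all genes. limma-voom also called 0, while DESeq2 called 1 of 82 in AOS-FMT against busulfan (Jun), 1 of 82 in AOS-FMT against control-FMT (Hsp90aa1) and 0 in control-FMT against busulfan, where it called 0.971%, 0.237% and 0.0148% of all genes. The G1-S engine (E cyclins, Cdk2, E2F and pocket proteins) had 21 of 21 genes tested. In AOS-FMT over busulfan 11 were above 0 and 10 below, with a median log2 difference of 0.01, and 1 had an unadjusted p under 0.05. That gene was Cdk2, the kinase that follows CDK4 and CDK6 in the cycle, at 11.6 ± 0.866 CPM in AOS-FMT, 9.32 ± 0.791 in control-FMT, 9.15 ± 0.0161 in busulfan and 9.29 ± 1.81 CPM in control hearts, with AOS-FMT over busulfan 0.34 ± 0.15 on the log2 scale (edgeR adjusted p = 0.348). In control-FMT over busulfan 12 were above 0 and 9 below, and 0 had an unadjusted p under 0.05.

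The E2F target genes for DNA replication, the readout of Rb release, had 22 of 23 genes tested. In AOS-FMT over busulfan 18 were above 0 and 4 below (median 0.16), in AOS-FMT over control-FMT 16 and 6 (median 0.15), and in control-FMT over busulfan 12 and 10 (median 0.05), with 0 at an unadjusted p under 0.05 each time. Mcm6, part of the replicative helicase, was at 14.6 ± 3.84 CPM in AOS-FMT, 12.2 ± 3.26 in control-FMT, 10.3 ± 4.68 in busulfan and 10.4 ± 1.91 CPM in control hearts. All 4 groups overlapped.

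Genes that turn over D cyclins and p27 had 13 of 15 tested, 6 above 0 and 7 below in AOS-FMT over busulfan (median 0.00). Rnf123, part of a ubiquitin ligase for p27, was at 96.9 ± 13.99 CPM in AOS-FMT, 109.7 ± 4.003 in control-FMT, 119.7 ± 10.6 in busulfan and 96.3 ± 6.13 CPM in control hearts, with AOS-FMT over busulfan -0.31 ± 0.12 on the log2 scale (edgeR adjusted p = 0.306). The list for CDK activation and folding had 6 of 6 tested, 4 above 0 and 2 below in AOS-FMT over control-FMT. Its Hsp90aa1, an HSP90 chaperone that with Cdc37 folds CDK4, was at 227.1 ± 27.4 CPM in AOS-FMT, 171.4 ± 7.94 in control-FMT, 188.1 ± 3.00 in busulfan and 219.7 ± 3.11 CPM in control hearts, with AOS-FMT over control-FMT 0.41 ± 0.10 on the log2 scale (edgeR adjusted p = 0.638).

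Of 22 transcriptional regulators of the D cyclins and inhibitors, 20 were tested. In AOS-FMT over busulfan 13 were above 0 and 7 below (median 0.07), 2 with an unadjusted p under 0.05 were higher and 1 was lower. Jun, a subunit of AP-1, which acts on the Ccnd1 promoter, was at 167.5 ± 37.2 CPM in AOS-FMT, 110.5 ± 21.4 in control-FMT, 105.3 ± 9.78 in busulfan and 114.2 ± 7.71 CPM in control hearts, with AOS-FMT over busulfan 0.67 ± 0.17 on the log2 scale (edgeR adjusted p = 0.242). Mycn, a MYC family factor, was at 7.53 ± 3.48 CPM in AOS-FMT, 14.2 ± 1.41 in control-FMT, 12.6 ± 2.33 in busulfan and 7.55 ± 1.87 CPM in control hearts. AOS-FMT and control-FMT libraries did not overlap for Mycn, -0.92 ± 0.28 on the log2 scale (edgeR adjusted p = 0.706).

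The genes whose profile over the 12 libraries was most like that of Ccnd1, by Pearson r of log2 CPM among 10501 genes, were Nrp2 (r = 0.98), Col4a2 (0.97), Plxnd1 (0.97), Col4a1 (0.96) and Apln (0.95). Nrp2 encodes a neuropilin, a co-receptor for VEGF and semaphorins, Plxnd1 a semaphorin receptor, Col4a1 and Col4a2 the main chains of basement membrane collagen, and Apln the peptide apelin. Nrp2 averaged 64.4 ± 8.70 CPM in AOS-FMT, 67.9 ± 6.34 in control-FMT, 63.3 ± 8.67 in busulfan and 43.1 ± 3.91 CPM in control hearts. Apln averaged 29.6 ± 6.03, 31.5 ± 3.23, 29.2 ± 6.38 and 15.9 ± 2.03 CPM in the same order. All of these profiles hold the step between control and exposed libraries. After the group means were taken out, r with Ccnd1 was 0.92 for Nrp2, 0.79 for Col4a2, 0.81 for Plxnd1, 0.73 for Col4a1 and 0.75 for Apln, over the same 12 libraries. The genes were picked by r in these libraries, so these values are not a separate check.

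**Figure D5:**
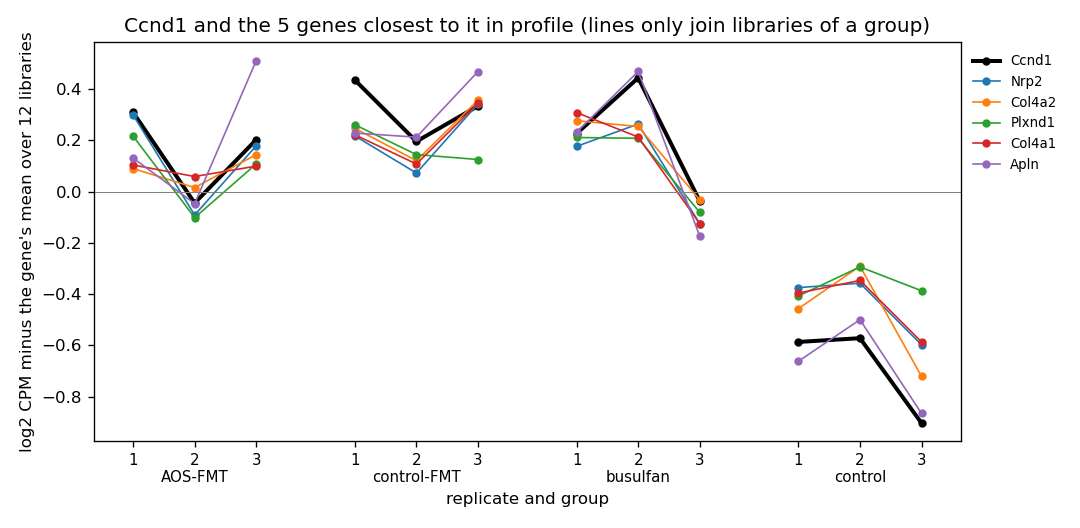
Log2 CPM of Ccnd1 and the 5 genes closest to it in profile, each minus its own mean over the 12 libraries. All 6 genes lie below 0 in the 3 control libraries, and within AOS-FMT hearts replicate 2 is the lowest library for each of the 6.

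Cell type content also differed between the libraries. Cardiomyocyte markers, 15 of 15 detected, summed to 97700 to 131500 CPM in AOS-FMT, 133500 to 139600 in control-FMT, 149300 to 173700 in busulfan and 115600 to 168600 CPM in control libraries, so the tissue label fits its markers. Mural cell markers, of pericytes and smooth muscle, were above 0 against control for 12 of 15 in AOS-FMT, 15 of 15 in control-FMT and 13 of 15 in busulfan hearts. Their sums were 4276 to 4441, 4640 to 5161, 4890 to 4973 and, in control libraries, 3937 to 4945 CPM, and their part in the Ccnd1 level was not tested. Endothelial markers were above 0 for 9, 7 and 7 of 15, and their sums overlapped control in each group.

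Fibroblast and macrophage markers lay lower in busulfan than in control hearts for 14 and 15 of 15 genes. In control-FMT hearts they lay lower than in control hearts for 11 and 13 of 15. Their median log2 differences from control were -0.66 and -0.48 in busulfan, -0.42 and -0.28 in control-FMT, and 0.09 and 0.02 in AOS-FMT hearts. Their part in the Ccnd1 level was not tested. In AOS-FMT over busulfan, fibroblast and macrophage markers were each above 0 for 15 of 15 genes (median log2 differences 0.79 and 0.51). Cardiomyocyte markers were below 0 for 15 of 15 genes (median -0.45). In control-FMT over busulfan these lists had 14, 10 and 0 of 15 genes above 0 (medians 0.34, 0.20 and -0.20). The part of these shifts in the gene differences between exposed groups was not tested. Platelet markers lay below control for 6 of 6 genes in all 3 exposed groups. The atrial score, a mean log2 CPM of 4 atrial genes, was 6.58, 10.4 and 9.5 in AOS-FMT, 3.73, 1.01 and 6.31 in control-FMT, 0.471, 4.11 and 7.28 in busulfan, and 6.06, 10.3 and 9.88 in control libraries. With this score in the fit, the log2 difference of Ccnd1 from control was 0.84 ± 0.14 in AOS-FMT, 0.88 ± 0.18 in control-FMT and 0.78 ± 0.18 in busulfan hearts. In the same fit and order, Ccnd2 was at -0.11 ± 0.19, 0.29 ± 0.25 and 0.35 ± 0.25 from control. Cdkn1c was at -0.18 ± 0.15, -0.41 ± 0.19 and -0.50 ± 0.18. Without the score, Ccnd2 was at -0.17 in control-FMT and -0.10 in busulfan hearts, so its direction turned there. Cdkn1c was at -0.05 and -0.15 in these groups without the score. The liver score, a mean log2 CPM of liver markers, was 2.24, 2.53 and 5.12 in AOS-FMT libraries. It was 2.12, 0.825 and 1.36 in control-FMT and 1.03, 1.26 and 1.33 in busulfan libraries. In control libraries it was -0.295, 0.457 and 0.0688, below every exposed library. Liver score and exposure can therefore not be fully told apart in a fit that holds both. With the liver score in the fit, the Ccnd1 values were 0.74 ± 0.27, 0.96 ± 0.18 and 0.87 ± 0.17.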

How the data were processed

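The members and lists were chosen with earlier results of these data known. The deposited table gave estimated counts per gene, per the file headers, 94.7% to 95.3% of them whole per library (within 1e-09), and the authors also deposited TPM (used for levels between genes) and FPKM (not used). The authors' group means were not used. Per the submitters' processing notes, Bowtie 0.12.2 and mm10 were used. The counter, the annotation and filters were not given in the sources used here.

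Estimated counts were rounded. Library totals were 11333647 to 14335702, and 15097 to 16083 genes had a count. filterByExpr kept 13489 genes. All 12 libraries, 4 groups of 3, entered 1 robust quasi-likelihood fit of edgeR 4.0.16 (R 4.3.3) with TMM scaling (factors 0.908 to 1.08), and the common biological coefficient of variation was 18.6%. Calls needed an adjusted p under 0.05 (Benjamini-Hochberg, across the 13489 genes). CPM are TMM-scaled, log2 CPM carry a prior count of 2, and intervals are 95% from the fit. Chi-square per degree of freedom between replicates was 9.26 to 75.3, so no library was a copy of another. Shares and ratios of TPM were compared by exact permutation. DESeq2 1.42.0 and limma 3.58.1 (voom) were alternatives, with other scalings, no filter, only the compared libraries, a replicate block, atrial or liver covariates, and each library left out. The procedure was tested on simulated counts. Genes named were all listed members and Cdkn1a, a part of the 3 genes of each pathway list with the smallest p between exposed groups, and the 5 genes of at least 5 CPM, predicted names left out, closest to Ccnd1 by Pearson r. Of 17536 gene IDs, 17487 matched a GRCm38.p6 gene table. Floors of 3 counts cover counting error only.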

Additional observations from a re-analysis of the deposited data

How the results depend on the processing

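The alternatives reuse the libraries in which Ccnd1 was known to be higher when the genes were picked, so its direction against control is not tested by them. Ccnd1 stayed above 0 against control in 21 of 21 alternatives per comparison. Its log2 values were 0.74 to 0.94 for AOS-FMT, 0.88 to 1.07 for control-FMT and 0.78 to 1.02 for busulfan. Its call did not stay, and no other listed gene was called in any alternative. Listed genes called were 1 under DESeq2, library size only, no filter and the replicate block for AOS-FMT and for control-FMT against control, and for AOS-FMT also 1 under limma-voom and the atrial covariate. For busulfan against control they were 0 under limma-voom, RLE scaling, library size only, the atrial and liver covariates and the compared libraries only. With each library left out they ranged from 0 to 1 in all 3. They were 1 without AOS-FMT replicate 2 (AOS-FMT, control-FMT) or busulfan replicate 3 (AOS-FMT), and 0 for busulfan without AOS-FMT replicate 3, any control-FMT or control replicate, or busulfan replicate 1 or 2. The cause was not tested. Whether the replicate numbers pair the libraries is not settled here. Correlations of deviations from group means were -0.161 to 0.454 over 18 same-number pairs and -0.444 to 0.342 over 36 other-number pairs. Of 12 libraries, 4 were closest to their own number, and these were replicate 1 of each group. The replicate block gave 0 calls of listed genes between exposed groups. Under library size only, Ccnd3, Cdk4 and Cdkn2c had an unadjusted edgeR p under 0.05 in AOS-FMT over busulfan (0.044, 0.028 and 0.041). Their log2 differences were 0.24, 0.28 and 0.34, and their edgeR adjusted p-values 0.277, 0.246 and 0.271. The share of all genes at such an unadjusted p was not counted under this setting.

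Differences between exposed groups that turned direction reached at most 0.398 in size. For control-FMT over busulfan this was Ccnd2 under library size only (0.0102). For AOS-FMT over busulfan it was Ccnd1 (0.0665 library size, 0.0588 atrial), Ccnd2 (0.127 library size, 0.000115 no filter), Ccnd3 (-0.0309 liver), Cdkn1b (-0.02 atrial), Cdkn1c (0.071 library size, 0.315 atrial, 0.0306 liver) and Rb1 (0.099 library size). For AOS-FMT over control-FMT it was Ccnd2 (-0.398 atrial, -0.175 liver), Ccnd3 (-0.0354 liver), Cdk6 (0.0634 liver), Cdkn1b (-0.0535 atrial, -5.15e-05 liver), Cdkn1c (0.226 atrial) and Rb1 (-0.0298 liver). With each library left out, AOS-FMT over busulfan ranged from -0.179 to 0.0604 for Ccnd1, -0.133 to 0.124 for Ccnd2, -0.0612 to 0.216 for Cdk6, -0.161 to 0.0983 for Cdkn1c and -0.118 to 0.119 for Rb1. Control-FMT over busulfan ranged from -0.0144 to 0.224 for Ccnd1, -0.198 to 0.0762 for Ccnd2, -0.0524 to 0.0995 for Ccnd3, -0.0765 to 0.107 for Cdkn1b and -0.00139 to 0.118 for Cdkn2c. AOS-FMT over control-FMT ranged from -0.0855 to 0.196 for Ccnd2, -0.0243 to 0.162 for Cdk4 and -0.328 to 0.0212 for Cdk6.

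From CPM in place of TPM, the difference in the Ccnd1 share from control was 8.92 percentage points for AOS-FMT, 11.9 for control-FMT and 10.3 for busulfan, and the ratio of D cyclins to inhibitors was -0.00613 for AOS-FMT minus busulfan. Ccnd3 made up 38.4% to 53.7% of summed D cyclin CPM. In control replicate 2 it was below Ccnd2, at 39.3% against 46.6%. With each library left out, the Ccnd1 share ranged from -2.58 to 0.426 for AOS-FMT minus busulfan and -0.209 to 2.73 for control-FMT minus busulfan. The ratio ranged from -0.102 to 0.101 for AOS-FMT minus busulfan, and against control from 0.0647 to 0.732 for AOS-FMT, -0.117 to 0.551 for control-FMT and 0.041 to 0.708 for busulfan.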
